A study of Mus musculus with 18 samples.

Results

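The miR-29 family was followed across 6 miR-eCLIP libraries of mouse thymocytes, the developing T cells of the thymus. In miR-eCLIP, Argonaute 2 (Ago2), which carries microRNAs (miRNAs), is fixed by UV light to the RNA it touches. Ago2 is then immunoprecipitated (IP), and the miRNA it holds is ligated to the RNA bound beside it. Each chimeric read therefore names 1 miRNA and 1 position in the genome. The members were the reads named mmu-miR-29a-3p, mmu-miR-29b-3p or mmu-miR-29c-3p, 3 of the 369 miRNA names in these libraries. They made up 3575 of 411434 chimeric reads (0.869%).

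The series held 18 samples in 6 groups of 3, made of total thymocytes from mice aged 6 weeks. Wild-type mice were C57BL/6. Knockout mice were B6.Mirc14tm1.1Ankr, labelled miR181a/b-1-KO, which lack Mir181a-1 and Mir181b-1, and the labels do not limit the deletion to 1 cell type. Each genotype was assayed by an Ago2 IP, by an Ago2 IP with added miR-181 selection, and as input. The results below come from the Ago2 IP libraries, 3 of each genotype. The inputs were not analysed here. The labels do not say that samples of a group came from separate animals, so p-values measure the spread between samples, which may be technical.

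Wild-type Ago2 IP libraries held 43983 to 117849 chimeric reads and knockout libraries 52100 to 67639. All 14 thymocyte markers examined had chimeric reads. Their summed level was 14824 to 17429 (wild type) and 14415 to 15701 (knockout) reads per 1000000 chimeric reads, those of miR-181 included. Markers of other cell types were near 0 over the 6 libraries: 9 reads for B cells, 14 for myeloid cells, 3 for stroma, with Col1a1, Col1a2 and Col3a1 at 0, 19 for erythroid cells and 0 for the 5 markers of thymic epithelium. A chimeric read needs both the miRNA and its target RNA, so fewer cells of a type, less RNA per cell and less binding cannot be told apart.

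A miRNA guides Ago2 to messenger RNAs mainly through its seed, bases 2 to 8, and the bound messenger RNA is then translated less or degraded. The miR-29 family is known for targets among collagens and other matrix proteins, DNA methyltransferases and TET enzymes, and the survival factor Mcl1. In T cells and the thymus it is known for restraining interferon responses, through Ifng, Tbx21 and Eomes in T cells and Ifnar1 in thymic epithelium. Its 3 mature forms are shown because they share the seed, in capitals, and differ only outside it (RefSeq, GRCm38.p6, 5′ to 3′):
mmu-miR-29a-3p: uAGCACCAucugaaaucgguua
mmu-miR-29b-3p: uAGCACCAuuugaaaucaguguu
mmu-miR-29c-3p: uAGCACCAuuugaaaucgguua

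All 3 members matched the RefSeq table, and no other of its 1679 mature names had this seed. Counted from 1 at the 5′ end, miR-29a and miR-29c differed by C10U alone, with miR-29a as the reference. Against miR-29a, miR-29b differed by C10U, G18A, U21G and A22U and was 23 nt long, while the other members were 22 nt. The mature miR-29a lies at chr6:31062673-31062694 on the minus strand (GRCm38), next to Mir29b-1, whose mature form lies at chr6:31063025-31063047. The second copy of miR-29b lies at chr1:195037091-195037113 on the plus strand and miR-29c at chr1:195037600-195037621. Both miR-29b genes give the same mature sequence, so its reads cannot be assigned to 1 of them. How a read was assigned to miR-29a or miR-29c, which differ at 1 base, is not given in the sources used here.

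Within the family, miR-29a and miR-29b contributed nearly equal numbers of contacts and miR-29c few. Over the 6 libraries miR-29a had 1809 reads (50.6% of the family), miR-29b 1641 (45.9%) and miR-29c 125 (3.50%). Among the 362 non-miR-181 names, miR-29a ranked at 27, miR-29b at 28 and miR-29c at 88 by reads. The opposite arms were nearly absent: 1 miR-29 5p name had 4 reads in all.

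In wild-type libraries 1, 2 and 3, miR-29a had 452, 220 and 140 reads, and in knockout libraries 346, 375 and 276. For miR-29b the wild-type libraries had 411, 215 and 129 reads and the knockout libraries 312, 312 and 262. For miR-29c they had 36, 15 and 13 reads, and 12, 26 and 23. The first wild-type library, the deepest, was highest for every member, and the third wild-type library was lowest for miR-29a and miR-29b.

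As a share of family reads, which does not depend on depth, the members were steadier. The share of miR-29a was 49.6% ± 0.696 in wild-type and 51.1% ± 1.75 in knockout libraries (SD, n = 3 each). That of miR-29b was 46.4% ± 1.18 and 45.7% ± 1.66, and that of miR-29c 3.98% ± 0.639 and 3.18% ± 1.22. None of the differences, 1.54, -0.737 and -0.803 percentage points (knockout minus wild type), passed an exact two-sided permutation test (p = 0.3, 0.6 and 0.5, each 0.6 after Benjamini-Hochberg adjustment over 4 tests). With 3 libraries against 3 the smallest p that this test can give is 0.1.

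The knockout removes miR-181 chimeras from the total, so the family was measured against all other non-miR-181 miRNAs. It held 1.09%, 0.943% and 0.947% of non-miR-181 reads in the wild-type libraries, and 1.12%, 1.07% and 1.09% in the knockout libraries. The groups overlapped, because the first wild-type library lay among the knockout libraries. The means were 0.994% ± 0.0848 and 1.09% ± 0.0240 (SD, n = 3 each), a log2 difference of 0.14 (exact two-sided permutation p = 0.2, adjusted p = 0.6). Counting error alone gave each library a 95% Wilson interval such as 0.843% to 1.06% in the third wild-type library. Of all reads, miR-181 included, the family made up 0.685% ± 0.0675 in wild-type and 1.08% ± 0.0240 in knockout libraries, without overlap. This denominator includes the reads of miR-181 itself, 14212 to 35540 per wild-type library and 753 to 944 per knockout library.

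**Figure D1:**
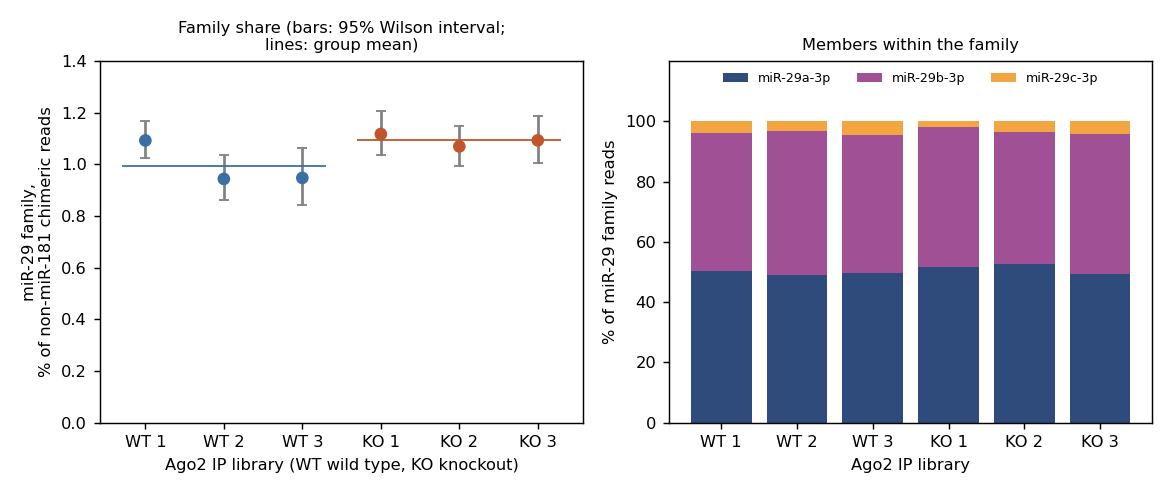
The left panel plots miR-29 family reads as a percent of non-miR-181 chimeric reads in each Ago2 IP library, with 95% Wilson intervals as bars and group means as lines. The right panel stacks the 3 members as a percent of family reads. Wild-type library 1 (1.09%) sits among the knockout libraries (1.07% to 1.12%), and miR-29a and miR-29b take nearly equal parts in all 6 libraries.

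Each member was also tested in a model across all miRNAs. Of 118 non-miR-181 miRNAs tested with edgeR's quasi-likelihood test, 6 (5.08%) had an adjusted p of at most 0.05, and 0 of the 3 miR-29 members did. Their unadjusted p was also above 0.05, and DESeq2, which called 8 (6.78%), likewise called 0 of them. The log2 fold change, knockout over wild type, was 0.13 (SE 0.0888) for miR-29a with an adjusted p of 0.342. It was 0.064 (SE 0.0860) for miR-29b with an adjusted p of 0.661, and -0.25 (SE 0.283) for miR-29c with an adjusted p of 0.593 (edgeR, Benjamini-Hochberg). Each SE of an edgeR fit, here and below, was derived as the absolute log2 fold change divided by the square root of the F statistic. With 1 library left out, the log2 fold change ran from 0.068 to 0.20 for miR-29a and from 0.0065 to 0.11 for miR-29b. Over all 118 miRNAs the log2 fold changes ran from -1.43 to 1.69, with a median absolute value of 0.203, and miR-29a and miR-29b lay below that median. Wild-type and knockout shares did not overlap for 37 of the 118 (31.4%), and overlapped for all 3 members.

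**Figure D2:**
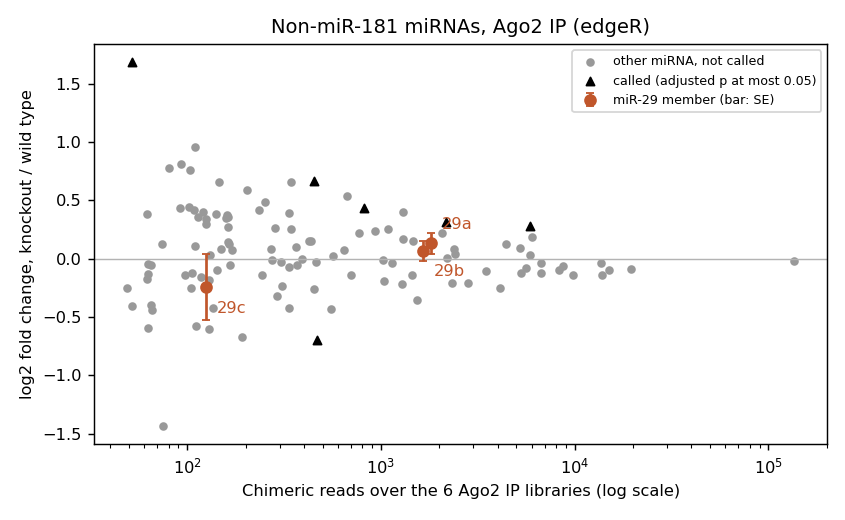
Each point is a non-miR-181 miRNA, with its reads over the 6 Ago2 IP libraries on a log axis and its log2 fold change, knockout over wild type, from edgeR. The miR-29 members (orange, bars are SE derived from the F statistic) lie at 0.13, 0.064 and -0.25. None is among the 6 called miRNAs (black triangles).

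The miRNAs whose shares varied most like the family over the 6 libraries were miR-7a-5p, miR-425-5p and miR-500-3p. Their log2 shares, each centred on its own mean, differed from the family's by 0.0614, 0.0632 and 0.0663 on average, against a median of 0.199 over 115 miRNAs.

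Most miR-29 contacts were scattered. Family reads on 1 strand were joined into a site where neighbours lay within 20 nt, which gave 3082 sites. Of these, 2908 (94.4%) held a single read, and together they carried 81.3% of family reads. Reads from 2 or more libraries occurred at 130 sites, from at least 3 at 43, and from all 6 at 4. Only 18 sites held 5 or more reads, with 309 reads in all (8.64%). There were 9 sites of exactly 4 reads, just outside this minimum, and 4 of exactly 5.

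At these 18 sites miR-29 was usually the leading miRNA. Counting every chimeric read within 20 nt on the same strand, the family held more than 50% of reads at 13 of them, with a median of 80% and a range from 2.67% to 100%. The minimum of 5 family reads favours a high family share, and sites of other miRNAs were not picked in this way for comparison. No miR-181 read lay in the window at 11 of the 18. A gene span covered 15, and 13 of those spans had a known strand. The site lay on the strand of the gene in 12 of the 13, the exception being in Gnb1l. It lay within 5000 nt of the 3′ end of the span in 9, and within 2000 nt in 6. The spans of Dusp2 (2219 nt) and Btg2 (4291 nt) are shorter than 5000 nt, so their sites could not lie farther from that end. Exons, introns and UTRs were not analysed here.

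**Figure D3:**
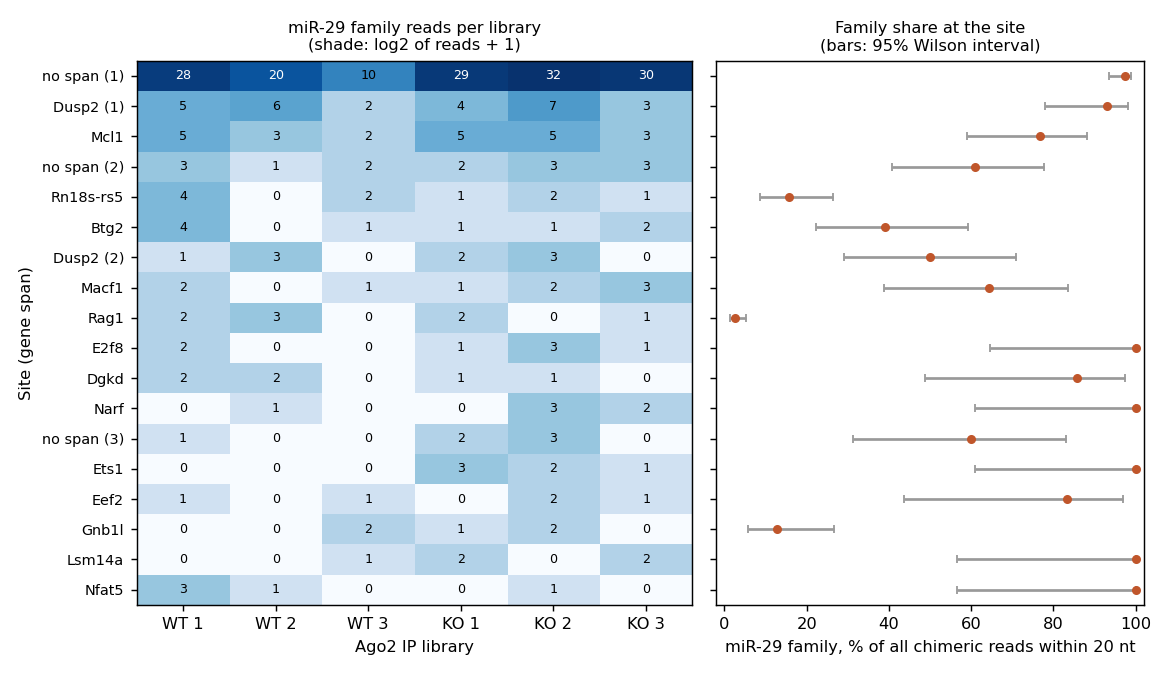
Rows are the 18 sites of at least 5 family reads, named by their gene span. The left panel gives family reads in each Ago2 IP library (shade: log2 of reads + 1), and the right panel the family's percent of all chimeric reads within 20 nt with its 95% Wilson interval. The top site is high in every library (10 to 32 reads), and the site in Ets1 has reads in the 3 knockout libraries only.

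The site in Dusp2 was the most used one in a protein-coding gene. Dusp2 encodes a nuclear phosphatase that switches off MAP kinases and is induced by T cell receptor signals. The site, at chr2:127337871-127337910 on the plus strand (GRCm38), lay 487 nt before the 3′ end of the span. It held 5, 6 and 2 family reads in wild-type libraries 1, 2 and 3, and 4, 7 and 3 in the knockout libraries. Reads came from all 6 libraries and the groups overlapped. Of 29 chimeric reads in the window, 27 (93.1%, 95% Wilson interval 78.0% to 98.1%) were miR-29. A second site, at chr2:127338191-127338200, held 9 of 18 reads (50%) and lay 182 nt before the 3′ end.

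Over its whole span of 2.22 kb Dusp2 had 39 family reads, 7, 9 and 2 in wild-type and 8, 10 and 3 in knockout libraries. These were 33.6% (25.7% to 42.6%) of its 116 chimeric reads, beside 1 read of miR-181. Per 1000000 non-miR-181 reads its level was 114 ± 65.6 in wild-type libraries and 114 ± 48.8 in knockout libraries (SD, n = 3 each). The spread within each genotype was far larger than the difference between their means.

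In the fit over pairs of a miRNA and a gene span, 1342 pairs passed the filter on low counts and 19 (1.42%) were called by edgeR. Dusp2 was the 1 miR-29 pair that passed, and it was not called, with a log2 fold change of 0.063 (SE 0.492, adjusted p = 0.986). The sign of that value turned when wild-type library 1 or 3 or knockout library 1 or 2 was left out, with a range of -0.20 to 0.56. The fit without a filter also used edgeR's legacy quasi-likelihood option. It held 99869 pairs, of which 1 (0.001%) was called, and 0 of its 1873 miR-29 pairs were. At an unadjusted p under 0.05 it held 7 miR-29 pairs, those with Abcg3, Ahr, Ankrd44, Lef1, Maml2, Mllt10 and Pip4k2a, each with an adjusted p of 0.514 (edgeR). Such pairs were no more frequent among the miR-29 pairs than among all pairs of that fit. The 7 named pairs held only 5 to 9 reads each.

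Mcl1, the survival protein of the Bcl2 family on which thymocytes depend, had the next site. At chr3:95661790-95661849 on the plus strand it held 5, 3 and 2 family reads in wild-type and 5, 5 and 3 in knockout libraries. The family made up 23 of 30 reads in the window (76.7%, 59.1% to 88.2%), and the site lay 1360 nt before the 3′ end of the span. Over the whole span the family had 25 of 171 chimeric reads (14.6%), beside 68 of miR-181. Per 1000000 non-miR-181 reads the family had 63.6 ± 3.28 in wild-type libraries and 85.2 ± 11.3 in knockout libraries (SD, n = 3 each). The groups did not overlap, which was also so for 683 of 6168 pairs with reads in at least 5 libraries (11.1%). The pair did not pass the filter of the main fit, and without the filter its log2 fold change was 0.50 (SE 0.666, edgeR adjusted p = 0.573), so the difference was not called.

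Sites with fewer reads fell in genes of several roles. Btg2, an antiproliferative gene, had a site at chr1:134075698-134075740 (minus strand) with 4, 0 and 1 wild-type and 1, 1 and 2 knockout reads, 39.1% of the window. Macf1, which links microtubules to actin, had a site of 9 reads at chr4:123510752-123510766, 64.3% of the window. In E2f8, an atypical E2F repressor of cell-cycle genes, all 7 reads at chr7:48867050-48867120 were miR-29, with 2, 0 and 0 in wild-type and 1, 3 and 1 in knockout libraries. All reads in the window were also miR-29 in Narf (6), Lsm14a (5) and Nfat5 (5), an osmotic-stress transcription factor. Eef2, translation elongation factor 2, had 5 of 6 and Dgkd, a diacylglycerol kinase, 6 of 7.

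The site in Rag1, the recombinase that rearranges T cell receptor genes, stood at the other end. There miR-29 made up 8 of 300 reads (2.67%), and miR-142a-3p made up 241.

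Ets1, a transcription factor of T cell development, had a site with reads in 1 genotype. At chr9:32706588-32706604 all 6 chimeric reads were miR-29, with 0 in each wild-type library and 3, 2 and 1 in the knockout libraries. Over its span of 122 kb it had 1, 2 and 0 reads in wild-type and 4, 4 and 3 in knockout libraries, 18.0 ± 21.6 against 61.7 ± 4.39 per 1000000 (SD, n = 3 each). The groups did not overlap. The pair did not pass the filter on low counts, and without the filter its log2 fold change was 1.68 (SE 0.934, edgeR adjusted p = 0.514), so the difference was not called. Ets1 was singled out after its values were seen.

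The site with most miR-29 reads lay outside every gene span, at chr17:39842991-39842996 on the plus strand (GRCm38). Rn18s-rs5, a pseudogene related to 18S ribosomal RNA, starts 3358 nt downstream, and the nearest gene on the other side, Esp15, is 197324 nt away. Which transcript the site belongs to was not determined here. Wild-type libraries had 28, 20 and 10 family reads here and knockout libraries 29, 32 and 30. Every library had at least 10, and the third wild-type library, the shallowest, was lowest. The 149 reads were 97.4% (93.5% to 99.0%) of the 153 in the window and 4.17% of all family reads.

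The reads were stacked on few positions: 64 at 39842996, 60 at 39842994 and 18 at 39842995. Counted once per position, strand, member and library, 34 of the 149 remained. As a share of family reads the site took 3.70% ± 0.678 in wild-type and 4.72% ± 0.548 in knockout libraries (SD, n = 3 each). In a fit over 306 20-nt clusters, of which 2 (0.654%) were called, its log2 fold change was 0.42 (SE 0.270, edgeR adjusted p = 0.666).

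The stretch from this site to the end of Rn18s-rs5, called the chr17 stretch below, had 2 further sites, with 14 and 10 family reads. In all it held 182 family reads (5.09%). In each library it took 4.12% to 6.06% of family reads, against 0.482% to 0.595% of other non-miR-181 reads.

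The balance of miR-29a and miR-29b differed between sites. At the chr17 site 126 reads were miR-29a, 21 miR-29b and 2 miR-29c. The share of miR-29a there was 84.6% ± 5.80 (SD, n = 6 libraries), with a lowest value of 75% and a highest of 90%, while over all other family reads it was 48.9% ± 1.56, between 46.9% and 51.0%. The ranges over libraries did not overlap. The reads at the site were stacked, with only 3 to 8 distinct combinations of position and member per library. Its share of miR-29a with repeats counted once is not given here. The site took 6.97% of all miR-29a reads, 1.28% of miR-29b and 1.60% of miR-29c reads. Outside the chr17 stretch the family was 49.0% miR-29a and 47.5% miR-29b.

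Dusp2 leaned the other way, with 27 miR-29b reads and 12 miR-29a reads, or 69.2% miR-29b (95% Wilson interval 53.6% to 81.4%). miR-29b was the more frequent in 5 of the 6 libraries, and both had 1 read in the third wild-type library. In Mcl1 the family reads were 13 miR-29a, 9 miR-29b and 3 miR-29c. These genes and sites were singled out after their values were seen, so the shares are given as descriptions.

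Reads of 2 members that land on the same place can be counted without choosing sites. Among all pairs of 1 miR-29a and 1 miR-29b read from different libraries, 254 of 2180332 lay within 20 nt on the same strand, or 116 per 1000000 pairs, with the chr17 stretch left out. The value was 140 for miR-29a with miR-29c (23 pairs) and 88.0 for miR-29b with miR-29c (14 pairs). Against 36 other miRNAs of at least 1000 reads, it ran from 0.675 to 8.31 for miR-29a (median 3.39) and from 0.869 to 19.1 for miR-29b (median 2.47). The highest was miR-150-5p for both. Sites with many reads weigh most in these counts. The larger Dusp2 site held 7 miR-29a and 20 miR-29b reads and the Mcl1 site 11 and 9, and both were kept. The pairs share libraries and heavily covered genes, and no test was made.

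The same measure within 1 miRNA gives how concentrated its contacts are. For miR-29b it was 235 per 1000000 pairs, rank 15 of 38 miRNAs of at least 1000 reads, and for miR-29a 107, rank 34, against a median of 208. The miR-29b value came from 249 pairs and includes the larger Dusp2 site, with 20 miR-29b reads. With the chr17 stretch kept, the value was 4999 for miR-29a, the highest of the 38, and 391 for miR-29b, rank 12. The stretch also raised miR-25-3p, from 268 (rank 14) to 3137 (rank 2), and miR-423-5p, from 197 to 660. For most of the 38 the value changed little.

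**Figure D4:**
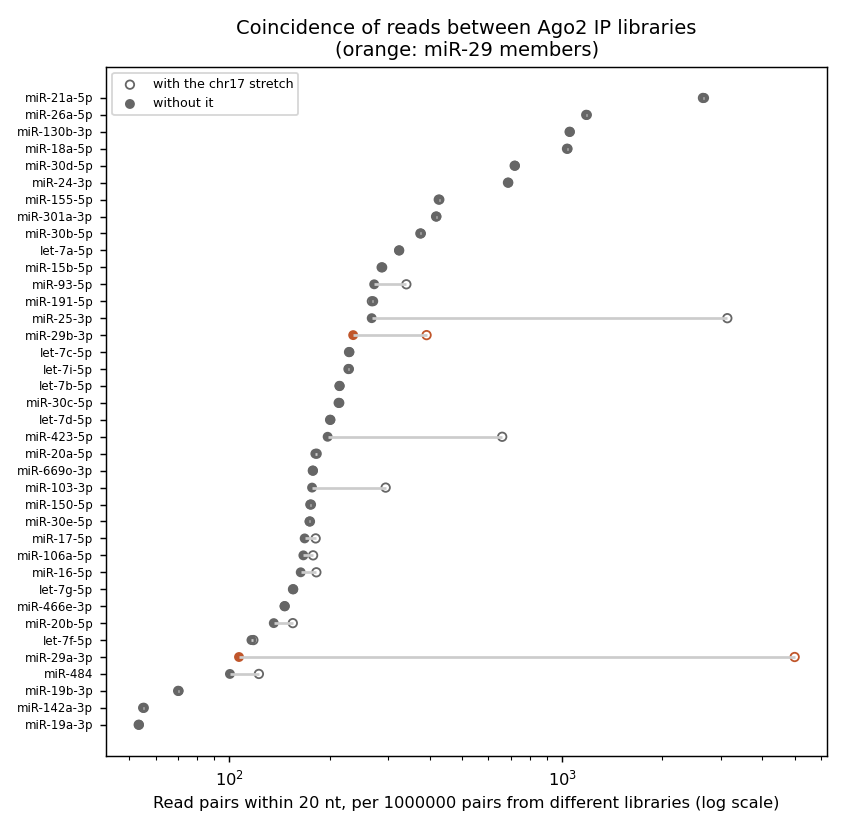
For each of the 38 miRNAs with at least 1000 reads, the log axis gives read pairs within 20 nt on the same strand, per 1000000 pairs of reads from different Ago2 IP libraries, with (open) and without (filled) the chr17 stretch. For miR-29a the value is 4999 with it and 107 without, and for miR-29b 391 and 235.

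By gene, the family had reads in 1873 spans, and 1297 of them had a single read. Spans held 89.6% of family reads and 93.4% of other non-miR-181 reads. At least 10 family reads occurred in 13 spans, reads from at least 5 libraries in 29, and reads from all 6 in 11. The 25 spans with the highest mean level among those 29 carried 315 reads (8.81% of the family), at 20.9 to 114 reads per 1000000 non-miR-181 reads. Of these, 23 were protein-coding, the others being Malat1 and Rn18s-rs5.

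Many of the 25 were long genes with heavy coverage by all miRNAs. The spans had a median of 157 kb, 15 were longer than 100 kb, and in 13 the largest miR-29 site held at most 2 reads. The family made up a median of 1.18% of all chimeric reads in them. In 15 of the 25 its share lay within 0.5 to 2 times the 0.869% it had over all reads.

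Themis, a regulator of T cell receptor signalling at positive selection, was one of these. It had 6, 5 and 1 family reads in wild-type and 2, 2 and 4 in knockout libraries, 0.950% of its 2106 chimeric reads. Satb1, a chromatin organiser of thymocytes, had 5, 3 and 1 reads in wild-type and 2, 5 and 2 in knockout libraries, 0.781% of 2305, and no 2 of its 18 reads lay within 20 nt on 1 strand. Rn18s-rs5 had 19 of 1863 (1.02%), Malat1, a nuclear long noncoding RNA, 12 of 1232 (0.974%), and Rag1 13 of 1104 (1.18%). In these 5 spans miR-29 was about as frequent as in the libraries as a whole.

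Transcription factors of T cell development and lymphoid genes lay in the same range. Bcl11b, needed for T cell commitment, had 9 of 1039 reads (0.866%), Tox, needed for the CD4 lineage, 9 of 1097 (0.820%), and Tcf12, an E protein, 7 of 892 (0.785%). Mbnl1, a splicing regulator, had 8 of 1029 (0.777%), of which 7 were miR-29b. Cux1 (0.667%), Prkcb (1.07%), Slc9a9 (0.936%), Mad1l1 (0.916%), Elmo1 (1.35%) and Inpp4b (1.31%) were alike.

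A second set had a higher miR-29 share. Btg2 had 7, 1 and 1 reads in wild-type and 2, 4 and 3 in knockout libraries, 1.83% of 982, and Akap13, a kinase anchor protein, had 12 reads (2.39%). Ets1 (3.17%), Macf1 (3.31%), Dgkd (3.43%) and Clasp1 (3.85%), a microtubule-binding protein, followed. Mcl1 (14.6%), Narf (14.8%) and Dusp2 (33.6%) were the 3 above 10%.

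Among the 25 spans miR-29a was the more frequent in 14, miR-29b in 9, and 2 were equal. The knockout mean was higher in 15. The groups did not overlap in 4, Mcl1 and Ets1 with higher and Tox and Elmo1 with lower values in the knockout, against the 11.1% of all such pairs given above. For Tox the reads were 4, 1 and 1 against 1, 1 and 1, and for Elmo1 2, 1 and 1 against 1, 1 and 1. These rest on single reads in libraries of different depth.

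Spans with fewer libraries also stood high. Of 95 spans with at least 5 family reads, 78 had a share above 0.869%, which the minimum of 5 reads favours in spans of low coverage, and 8 had more than 10%. Beside Dusp2, Narf and Mcl1 these were Ahr (5 of 22 reads), Zbtb9 (6 of 38), E2f8 (8 of 51), Klhl28 (6 of 46) and Prickle1 (6 of 54). Ahr, the aryl hydrocarbon receptor, had 3, 1 and 1 reads in wild-type and 0 in each knockout library, with 2 of miR-29a and 3 of miR-29c. E2f8 had 7 of its 8 reads from miR-29b. The limit of 10% was set after the values were seen.

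**Figure D5:**
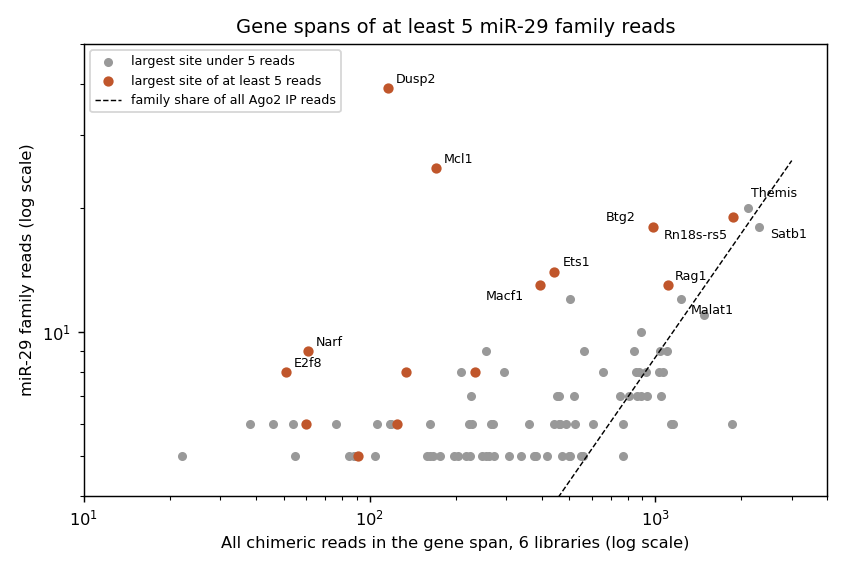
Each of the 95 points is a gene span of at least 5 miR-29 family reads, by all its chimeric reads and its family reads over the 6 Ago2 IP libraries, both on log axes. The dashed line is the family's 0.869% of all reads. Themis, Satb1 and Rn18s-rs5 lie near the line, and Dusp2, Mcl1, Narf and E2f8 far above it.

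Known miR-29 targets were read from a list of 52 genes in 6 roles, all of them in the gene table. A family read occurred at 21 and none at 31, and the 68 reads made up 2.03% ± 0.656 of family reads (SD, n = 6 libraries). The same genes took 0.568% ± 0.0361 of other non-miR-181 reads, and the family's share was the higher in 6 of 6 libraries. Without Mcl1, the 1 listed gene with at least 10 family reads, the shares were 1.32% ± 0.572 and 0.546% ± 0.0306, again higher in 6 of 6. None of these pairs passed the filter of the fit over 1342 pairs, so that no miR-29 contact of a listed gene was tested there.

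The enzymes of DNA methylation and demethylation had family reads in 6 of 7 genes, 12 of their 416 chimeric reads. Tet2 had 4 reads and Tet3 had 3, both oxidising methylcytosine, and Dnmt3a, a de novo methyltransferase, had 2. Dnmt3b, Dnmt1 and Tdg had 1 each. Tet2's reads came from knockout libraries 2 and 3, 2 in each, and those of Dnmt3a from 1 library of each genotype.

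Among survival and apoptosis genes, 3 of 7 had 27 reads, 25 of them in Mcl1 and 1 each in Bmf and Bbc3, both killer proteins with a BH3 motif. Bcl2 had 0 of 324 chimeric reads, which allows a share of up to 0.926%. Of 5 genes of T cell differentiation and cytokine signalling, Ifnar1, a chain of the type I interferon receptor, had 3 reads. Ifng had 0 family reads and 1 chimeric read of any miRNA, and Tbx21 and Eomes had no chimeric read at all, so their contact with miR-29 was not detectable at this depth.

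In growth signalling and the cell cycle 6 of 12 genes had 13 of 1153 chimeric reads. Pik3r1, a regulatory subunit of PI3 kinase, had 3, the cell-cycle genes Cdk6 and Ccnd2 had 2 each, and Ccnd1 had 1. Of 14 extracellular matrix genes, 3 had a read: Col4a1, Col4a2 and Lamc1, with 1 each. Those 14 genes had 41 chimeric reads in all, and Col1a1, Col1a2 and Col3a1 had none from any miRNA. Among 7 other targets Hdac4, a histone deacetylase, had 6 reads in 4 libraries and Zfp36, which destabilises messenger RNAs with AU-rich elements, had 4.

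Of the 14 thymocyte markers, 8 had family reads, 53 in all. They were Themis, Rag1, Bcl11b, Tcf7 (5), Dntt (3), and Cd3d, Cd3e and Cd8a (1 each). The coreceptor gene Cd4 had 0 of 611 chimeric reads, which allows a share of up to 0.491%, below the 0.869% of the family over all reads. Cd8b1 had 0 of 198, which allows up to 1.52%. These limits and the intervals cover counting error only.

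Spans of known strand held 2631 family reads (73.6%), and only these family reads enter the values of this paragraph. They lay on the strand of their gene in 98.0% ± 0.582 of cases, and other non-miR-181 reads in 97.7% ± 0.0529 (SD, n = 6 libraries). Of the reads on that strand, 34.0% ± 1.20 of the family's and 32.2% ± 0.519 of the others lay within 5000 nt of the 3′ end of the span. The difference of 1.87 percentage points had the same direction in 6 of 6 libraries (exact paired permutation p = 0.03125, the smallest that 6 libraries can give, adjusted p = 0.15625 over 5 tests). Within 2000 nt the shares were 21.8% ± 2.22 and 20.2% ± 0.292, higher in 5 of 6 (exact p = 0.156, adjusted p = 0.365). Nearer the end the direction was not constant: within 1000 nt they were 13.5% ± 2.04 and 12.4% ± 0.177 (exact p = 0.438, adjusted p = 0.547), and within 500 nt 7.37% ± 0.900 and 7.36% ± 0.135 (exact p = 0.969, adjusted p = 0.969), each higher in 3 of 6. None of the 5 tests passed after adjustment, and the distances were chosen after the data had been seen.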

How the data were processed

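Per the labels' protocols, a company made the libraries from UV-crosslinked (254 nm) thymocytes and sequenced them as paired 150-nt reads. The submitters' processing notes name Bowtie2 2.4.5, SAMtools 1.11, STAR 2.7.10, UMI-tools 1.1.1, bedtools 2.30.0 and the builds mm10 and GRCm38.p6, without roles or parameters. The deposited files give counts: a line stands for 1 chimeric read, its miRNA, strand and single-base position, neither scaled nor pooled. The 12 libraries had 24 files.

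All lines were used. Reads were named by RefSeq GRCm38.p6 gene spans, a single protein-coding span taking precedence, and the strand of a gene came from RefSeq's promoter table. Spans hold no exons, and overlapping genes cannot be told apart. Counts were tested with the quasi-likelihood test of edgeR 4.0.16 (filterByExpr at 10 counts for miRNAs and 5 for pairs, TMM normalization, adjusted p at most 0.05) in R 4.3.3, over the 6 Ago2 IP libraries. Wilson intervals used scipy 1.17.1 under Python 3.11.15. The exact tests of shares were computed directly in Python over every split of the libraries, and DESeq2 1.42.0 was run beside edgeR. Fits without the filter also used edgeR's legacy quasi-likelihood option. Scripts were tested on simulated data. Replicate numbers were not taken as pairs. At the depth of these libraries 3 reads, the floor, were 0.00364% to 0.0101% of non-miR-181 reads.

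Named spans were the 25 highest by mean level among spans with family reads in at least 5 libraries, every miR-29 pair called, listed targets of at least 10 reads and the 3 miRNAs of nearest profile. Members, lists and rules were chosen with earlier results of these data known. The values of some genes under these rules are not reported here. Target-site sequences and seed matches were not analysed here.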

Additional observations from a re-analysis of the deposited data

Results flagged for a closer look

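The miR-181-enriched libraries, which no comparison above uses, held 250 miR-29 family reads, more than the 3 reads taken as the floor for a count of 0. Wild-type enriched libraries had 46, 34 and 18 and knockout enriched libraries 64, 69 and 19, or 1.02% to 1.78% of their non-miR-181 reads. Of these reads, 66 (26.4%) lay at the site chr17:39842991-39842996, with 14, 7 and 6 in wild-type and 19, 15 and 5 in knockout libraries, against 4.17% of family reads in the Ago2 IP libraries. The difference between the 2 kinds of library was not tested.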

How the results depend on the processing

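The count of miR-29 calls was 0 under all 14 alternatives of the fit over miRNAs and all 16 of the fit over pairs, against 0 in the main fits. The counts over all features moved more. Fits with no filter also used edgeR's legacy quasi-likelihood option, so the filter was not their only change. Over miRNAs, 6 calls became 19 with no filter, 10 with miR-181 chimeras kept and 19 with the replicate block, and 0 to 11 with 1 library left out (0 without wild-type library 1 or 3 or knockout library 3). Over pairs, 19 calls became 441 with miR-181 chimeras kept. Of these 441, 405 were lower in the knockout, in a fit that also held the pairs of miR-181 itself. The 19 became 2 with DESeq2, 1 with no filter, 11 with repeated reads counted once and 3 with a minimum count of 10. They became 2 with 20-nt clusters, and 4 to 14 with 1 library left out. The cause was not tested.

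With 1 library left out, the log2 difference of the family share ran from 0.10 to 0.21, the difference in the miR-29a share from 0.816 to 2.51 percentage points, in miR-29b from -1.25 to 0.221 (turned without knockout library 2) and in miR-29c from -1.26 to -0.109. The listed targets' share of family reads ran from 1.83% to 2.19%. The log2 fold change of miR-29a ran from 0.068 to 0.20, of miR-29b from 0.0065 to 0.11 and of miR-29c from -0.41 to 0.016 (0.016 without knockout library 1). That of Dusp2 reached 0.56 without wild-type library 2, and turned to -0.20 without wild-type library 1, -0.075 without wild-type library 3, -0.028 without knockout library 1 and -0.19 without knockout library 2, and the cause was not tested. A minimum count of 10 and members kept apart left no miR-29 pair to test.

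Same-numbered libraries had correlations of -0.186, 0.0172 and 0.0278 of their deviations over 118 miRNAs. With the replicate block the miRNA fit made 19 calls, the pair fit 15, and neither called miR-29. Depth limits the tests: 1 of 1873 miR-29 pairs passed the filter on low counts, and repeated reads need not be independent molecules.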
